A study of Homo sapiens with 6 samples.

Results

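Of 19775 genes with a probe set of their own on a human expression array, 7 were followed here: C1orf116, CBLC, ALPP, LNCAROD, LRRC75A, KDF1 and FAM3B. They were chosen by their signals in these same data, because they lay among the genes most reduced in both of a pair of cell lines derived from PC-3 cells and belonged to no common gene family. The reduction against PC-3 is therefore a description, and no test is given for it. PC-3 is an established line of human prostate cancer, first grown from a metastasis in bone. TEM4-18 and TEM2-5 were isolated, in separate runs of the same experiment, after PC-3 cells migrated through a confluent monolayer of human lung microvascular endothelium. Neither TEM line carries an engineered allele per the labels, and all 3 lines were grown in the same serum-containing medium. Each TEM line is 1 isolate and each line was measured on 2 arrays, so the values compare these lines and not transmigrated cells in general. Whether a line's arrays stem from separate cultures is not stated in the labels, so p-values measure the spread between arrays, which may be technical. The titles number the TEM2-5 arrays 1 and 2, whereas their source names call both replicate 1, so the labels do not settle whether they are separate replicates; they are counted here as 2 arrays.

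The 7 genes have no common pathway. C1orf116, also called SARG, encodes an androgen-regulated protein. CBLC is the epithelial member of the CBL family, RING-type ubiquitin ligases that mark activated receptor tyrosine kinases for internalisation and degradation. ALPP encodes placental alkaline phosphatase, a membrane enzyme held by a lipid anchor and known as a marker of placenta and of some tumours. LNCAROD is a long noncoding RNA named for its reported activation of the neighbouring WNT inhibitor gene DKK1. KDF1 takes part in the switch of epidermal cells from division to differentiation, FAM3B encodes a secreted cytokine-like protein known from pancreatic islets, and LRRC75A encodes a leucine-rich repeat protein whose role is poorly described.

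The sequences before the transcription starts are described here by their letters. ZEB1, a known regulator of epithelial genes, is a repressor that binds E-boxes of the form CACCTG. Its part in the members' signals was not tested. RefSeq promoter sequences (GRCh38.p14) were found for 4 of the 7 members, C1orf116, ALPP, LNCAROD and KDF1. Entries for CBLC, LRRC75A and FAM3B were missing. Each sequence is the 250 bases before the start, 5′ to 3′ on the strand of the gene, with CACCTG or its reverse complement CAGGTG in capitals.
C1orf116, chr1:207032757-207033006, minus strand: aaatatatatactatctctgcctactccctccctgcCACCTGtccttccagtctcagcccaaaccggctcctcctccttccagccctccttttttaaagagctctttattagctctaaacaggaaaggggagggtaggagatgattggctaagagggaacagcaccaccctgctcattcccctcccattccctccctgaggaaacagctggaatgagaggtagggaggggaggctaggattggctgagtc
ALPP, chr2:232378501-232378750, plus strand: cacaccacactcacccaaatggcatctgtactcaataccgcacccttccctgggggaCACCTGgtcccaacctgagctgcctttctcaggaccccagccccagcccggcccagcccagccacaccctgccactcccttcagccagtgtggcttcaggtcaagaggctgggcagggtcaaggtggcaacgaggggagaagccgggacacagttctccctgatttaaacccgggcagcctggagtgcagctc
LNCAROD, chr10:52470534-52470783, minus strand: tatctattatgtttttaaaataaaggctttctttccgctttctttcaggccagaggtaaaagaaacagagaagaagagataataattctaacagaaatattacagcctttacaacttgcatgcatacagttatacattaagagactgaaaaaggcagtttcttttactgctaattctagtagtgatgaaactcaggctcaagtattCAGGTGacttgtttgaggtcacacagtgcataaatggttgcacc
KDF1, chr1:26960469-26960718, minus strand: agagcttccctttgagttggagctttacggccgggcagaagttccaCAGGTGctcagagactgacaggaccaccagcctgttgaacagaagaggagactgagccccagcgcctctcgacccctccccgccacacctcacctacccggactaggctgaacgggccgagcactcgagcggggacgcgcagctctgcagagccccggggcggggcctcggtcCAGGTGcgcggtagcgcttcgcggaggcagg

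CACCTG was found, on either strand, before a start of all 4 members with a sequence, in 4 of their 5 windows. It occurred once each in C1orf116, ALPP and LNCAROD and 2 times in KDF1. The same 6 letters occur in 17.5% of 35114 windows of this length over all RefSeq starts, and 2 or more times in 2.53%. In KDF1 the matches begin 204 and 31 bases before the start, in C1orf116 214, in ALPP 193 and in LNCAROD 44. LNCAROD has a further listed start, whose window held no match. The Grainyhead-type letters AACCNGTT (1.49% of windows) were found in 0 of these 5 windows, and no match overlapped another. A match describes letters only, and the arrays do not measure binding.

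Signals were deposited as linear MAS5 intensities in array units, for 54675 probe sets. Median signals lay between 267 and 317 on the 6 arrays. Log2 signals correlated at 0.976 to 0.980 across tested probe sets between arrays of a line and at 0.923 to 0.972 between lines, with probe sets that are not independent replicates. The epithelial keratin KRT8 stood at 23060.4 in PC-3, 6721 in TEM4-18 and 9226 in TEM2-5 (means of 2 arrays), and the E-cadherin gene CDH1 at 14772, 41.8 and 2499. All 15 endothelial markers had a probe set, with a summed signal of 3497 to 3559 on the PC-3 arrays, 4764 to 5996 on the TEM4-18 arrays and 4877 to 5167 on the TEM2-5 arrays. The markers CDH5 (84.6, 38.6 and 147) and VWF (117, 178 and 58.2) stayed near or below the low-signal filter of 174, and no marker was listed at 0. Of these markers 6 were tested, and 3 rose and 0 fell in TEM4-18, 2 rose and 0 fell in TEM2-5. The shares over all tested genes were 13.3% higher and 16% lower in TEM4-18, and 8.98% and 10.1% in TEM2-5. KDR, a VEGF receptor gene, averaged 226 in PC-3 and was higher in both derived lines, at 1423 (TEM4-18) and 1251 (TEM2-5; log2 differences 2.40 and 2.29, adjusted p = 0.000334 and 0.000913), and ROBO4 rose from 548 to 930 and 972 (0.73 and 0.78, adjusted p = 0.031 and 0.0329). ESAM rose from 279 to 821 in TEM4-18 (1.40, adjusted p = 0.000951) and stood at 490 in TEM2-5 (0.71, adjusted p = 0.0526). PECAM1 lay above the filter, at 905 in PC-3, 687 in TEM4-18 and 946 in TEM2-5, and passed in neither line (adjusted p = 0.318 and 0.886). CD34 (102, 334 and 252) and EGFL7 (444, 295 and 283) did not pass either. The part of these markers in the results below was not tested. In bulk RNA, fewer cells with a transcript and less of it in each cell cannot be told apart.

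The members had 10 probe sets, 3 for C1orf116, 2 for CBLC and 1 for each of the others. The brightest probe set of each gene stands for it. All 7 passed the filter, a mean above 174 over the 6 arrays, and the PC-3 mean was above 174 in all 7, against 1 of 7 in TEM4-18 and 3 of 7 in TEM2-5. CBLC, LRRC75A, FAM3B and KDF1, at means of 207, 188, 189 and 390 over the 6 arrays, passed through PC-3 alone and had to differ. Differences are on a log2(signal + 51.8) scale, where 51.8, the 20th percentile of all deposited values, damps noise in low signals and understates their change. Where a TEM mean lay below 51.8, the fold is given as a lower bound against 51.8.

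C1orf116, the androgen-regulated gene, had the largest reduction of the 7 in both lines on this scale. Its brightest probe set, 228865_at, read 7691 and 9076 in PC-3, 1048 and 754 in TEM2-5, and 65.2 and 194 in TEM4-18. The 3 lines did not overlap, with PC-3 highest and TEM4-18 lowest. The mean was 9.31-fold lower in TEM2-5 and 64.8-fold lower in TEM4-18 than in PC-3, a log2 difference of -3.16 ± 0.30 and -5.63 ± 0.30 (SE of the fit). The other probe sets gave the same order: 219856_at averaged 6098 ± 1084 in PC-3, 641 ± 167 in TEM2-5 and 25.4 ± 10.6 in TEM4-18 (SD, n = 2), and 219476_at averaged 4398 ± 594, 552 ± 50.8 and 42.3 ± 14.2.

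LNCAROD, the noncoding RNA, read 9951 and 9468 in PC-3, 1184 and 1167 in TEM2-5, and 228 and 183 in TEM4-18. Its arrays agreed closely within each line, and again PC-3 was highest and TEM4-18 lowest with no overlap. The log2 difference from PC-3 was -2.99 ± 0.15 in TEM2-5 and -5.25 ± 0.15 in TEM4-18. It kept a signal above the filter in both TEM lines.

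ALPP, the placental phosphatase gene, read 2347 and 2335 in PC-3, 313 and 201 in TEM2-5, and 13.4 and 10.1 in TEM4-18. The order was that of C1orf116 and LNCAROD, but TEM4-18 lay at the low end of the array's range. The mean was 9.12-fold lower in TEM2-5 and at least 45.2-fold lower in TEM4-18 (log2 differences -2.98 ± 0.31 and -5.24 ± 0.31).

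CBLC, the ubiquitin ligase gene, read 492 and 649 in PC-3, 19.3 and 30.5 in TEM4-18, and 19.1 and 30.8 in TEM2-5 on 220638_s_at. The TEM lines overlapped and both lay below 51.8, so both were at least 11-fold below PC-3 and have no order between them. The log2 difference from PC-3 was -3.01 ± 0.58 in each line. The name of this probe set, with _s_at, marks probes that can match several transcripts, so the size of the reduction is uncertain. The other CBLC probe set, 223668_at, did not show the reduction. It averaged 59.6 ± 41.7 in PC-3, 42.2 ± 30.7 in TEM4-18 and 57.7 ± 2.37 in TEM2-5 (SD, n = 2), below the filter throughout.

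LRRC75A, the leucine-rich repeat gene, read 583 and 469 in PC-3, 22.2 and 11.3 in TEM4-18, and 26.0 and 17.6 in TEM2-5. Both TEM lines were at least 10.2-fold lower than PC-3, and they overlapped below 51.8. Log2 differences were -3.07 ± 0.61 in TEM4-18 and -2.97 ± 0.61 in TEM2-5.

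FAM3B, the secreted factor gene, read 631 and 416 in PC-3, 14.1 and 12.6 in TEM4-18, and 30.5 and 32.9 in TEM2-5. The TEM arrays separated, with TEM4-18 lower, but all 4 lay below 51.8, where MAS5 values are noisy. Both lines were at least 10.1-fold below PC-3 (log2 differences -3.12 ± 0.61 and -2.76 ± 0.61).

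KDF1, the epidermal differentiation gene, read 1022 and 1049.7 in PC-3, 31.4 and 7.67 in TEM4-18, and 28.3 and 199 in TEM2-5. On the log scale, the TEM2-5 arrays disagreed by more than those of any other member, and the lower of them lay within the TEM4-18 range. The log2 difference was -3.95 ± 0.56 in TEM4-18 and -2.94 ± 0.56 in TEM2-5, and in TEM2-5 it was -2.12 without replicate 1 and -3.76 without replicate 2.

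**Figure D1:**
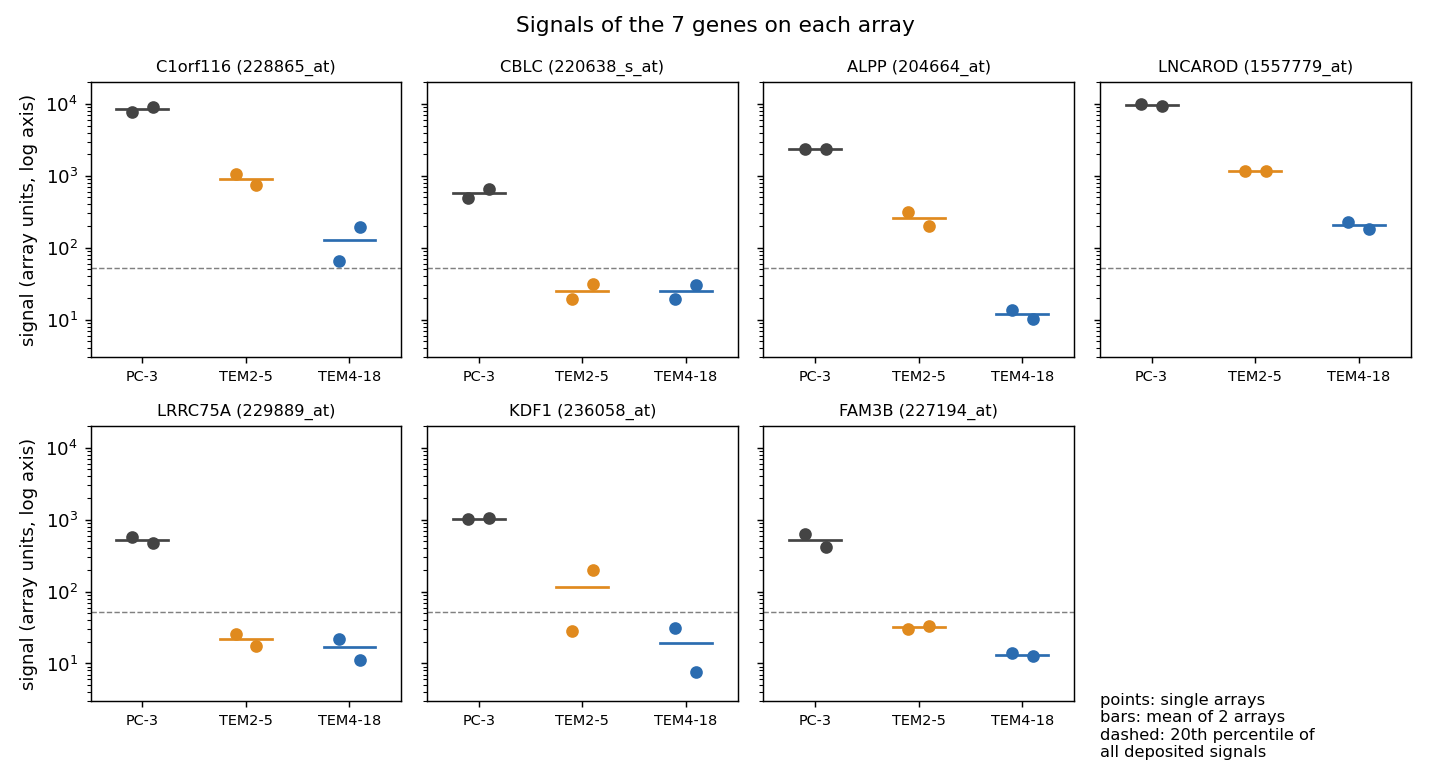
Signal of the brightest probe set of each gene on the 2 arrays of PC-3, TEM2-5 and TEM4-18, on a log axis in array units; points are arrays, bars are means of 2 arrays, and the dashed line is 51.8, the 20th percentile of all deposited signals. C1orf116, ALPP and LNCAROD step down from PC-3 through TEM2-5 to TEM4-18, while CBLC, LRRC75A and FAM3B lie below the dashed line in both TEM lines.

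All 7 members read lower on each of the 4 TEM arrays than on either PC-3 array, which was also true of 25.7% of the 13621 tested genes. Over all tested genes, 16% were called lower in TEM4-18 and 10.1% lower in TEM2-5, where called means an adjusted p under 0.05 in limma. Since this contrast chose the members, nothing is read from their calls. Their median log2 difference was -3.95 in TEM4-18 and -2.98 in TEM2-5, beside -0.04 and -0.02 over all tested genes. Ranked by the smaller of the 2 reductions, C1orf116 was 3rd, CBLC 6th, LNCAROD 7th, ALPP 8th, LRRC75A 10th, KDF1 11th and FAM3B 19th. There was no numeric cut: FAM3B (-2.76) stood beside the genes ST14 (-2.76) and LAD1 (-2.72), which are not members. The members' reductions in TEM2-5 spanned -3.16 to -2.76 and those in TEM4-18 -5.63 to -3.01. The narrow TEM2-5 span held at this pseudocount, at which they were ranked: it was -4.55 to -3.05 with a pseudocount of 1 and -2.96 to -1.60 with 4 times the pseudocount.

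The difference between TEM4-18 and TEM2-5 was not the contrast of the choice, although the same TEM arrays entered it. Of the 7 members, 3 were called, all lower in TEM4-18. Over all tested genes, 2.75% were called in either direction and 2.26% called lower. The members ranked 3rd to 19th of 13621 genes by their reduction in TEM2-5, which left little room for TEM2-5 to lie below TEM4-18. The choice thus partly fixed this direction, and the count is not read against these shares. C1orf116 was lower by a log2 difference of -2.47 ± 0.30 (SE, adjusted p = 0.0017), and its other probe sets gave -3.15 ± 0.24 (adjusted p = 5.27e-05) and -2.69 ± 0.22 (adjusted p = 9.81e-05). LNCAROD differed by -2.26 ± 0.15 (adjusted p = 1.47e-05) and ALPP by -2.26 ± 0.31 (adjusted p = 0.00377). Over all settings tried, the adjusted p ranged from 8.13e-05 to 0.129 for C1orf116, from 1.09e-05 to 0.00983 for LNCAROD and from 0.00242 to 0.0562 for ALPP. The call on ALPP was lost without TEM2-5 replicate 1 (-1.99, adjusted p = 0.0562), and that on the brightest C1orf116 probe set without the mean-variance trend (-2.47, adjusted p = 0.129).

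KDF1 did not pass between the TEM lines (-1.01 ± 0.56, adjusted p = 0.53), and it moved to -1.84 without TEM2-5 replicate 1 and -0.19 without replicate 2. CBLC (0.00 ± 0.58), LRRC75A (-0.11 ± 0.61) and FAM3B (-0.36 ± 0.61) did not pass either, with adjusted p of 1, 0.971 and 0.882. With both lines below 51.8, a further difference in these 3 genes could not be measured. Both TEM4-18 arrays lay below both TEM2-5 arrays for 4 members, C1orf116, ALPP, LNCAROD and FAM3B, as they did for 23.9% of tested genes.

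**Figure D2:**
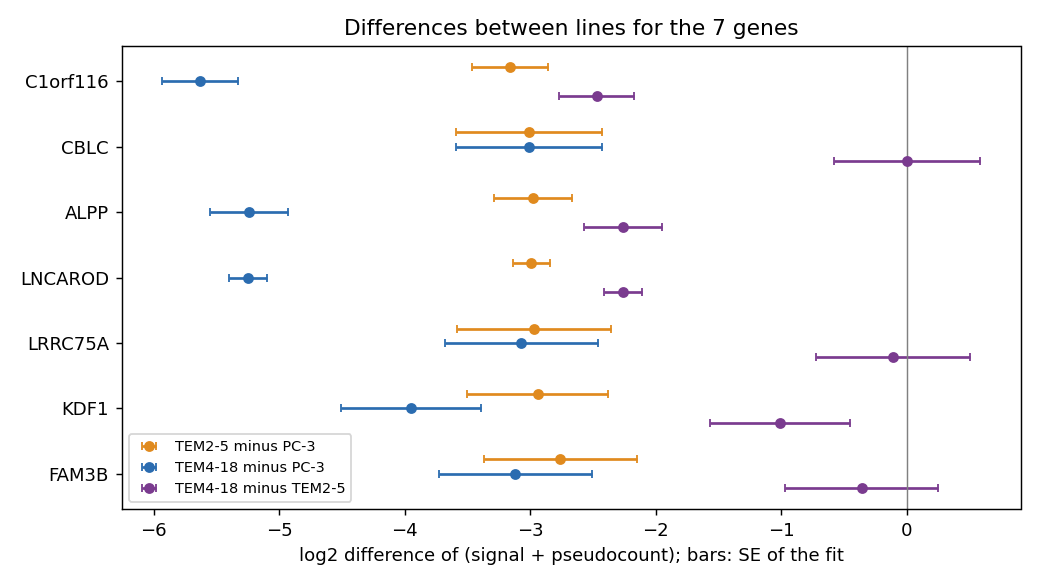
Log2 difference of (signal + 51.8) for each gene between TEM2-5 and PC-3, TEM4-18 and PC-3, and TEM4-18 and TEM2-5, with bars for the SE of the limma fit over 6 arrays. At this pseudocount the TEM2-5 reductions lie between -3.16 and -2.76 (-4.55 to -3.05 with a pseudocount of 1), and only C1orf116, ALPP and LNCAROD were called between the TEM lines, at -2.47 to -2.26.

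The 7 profiles fell into a pair of shapes with KDF1 between them. CBLC, LRRC75A and FAM3B had the lowest PC-3 means (570, 526 and 523) and lay below 51.8 in both TEM lines. At this pseudocount that limits their difference from PC-3 and brings the TEM lines level, so the grouping partly follows signal level. The place of KDF1 rests on TEM2-5 arrays that disagreed (28.3 and 199). Likeness was measured as the Euclidean distance over the 6 arrays between log2 values centred on each gene's mean, so that a small distance means a like size and order of change. ALPP and LNCAROD lay 0.38 apart and C1orf116 lay 0.92 and 1.08 from them, while LRRC75A and FAM3B lay 0.38 apart and CBLC lay 0.63 and 0.77 from these. Between C1orf116 and CBLC the distance was 3.04. KDF1 was 1.53 to 2.60 from every other member.

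The non-member genes most like each member were named by the same distance. For C1orf116 they were ST14, which encodes the membrane protease matriptase (0.94), EPPK1, the cytolinker epiplakin (1.00), and HOOK1, an endosome-to-microtubule linker (1.00). LNCAROD was nearest to LAD1, a basement membrane-associated protein gene (0.49), HOOK1 (0.53) and VGLL1, a cofactor of TEAD transcription factors (0.56). ALPP was nearest to S100A14, HOOK1 and LAD1, each at 0.58. LAD1, for example, averaged 13778 in PC-3, 2035 in TEM2-5 and 440 in TEM4-18.

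CBLC was nearest to the sialyltransferase gene ST6GALNAC5 (0.35), the crystallin gene CRYBA2 (0.51) and the antisense transcript SPINT1-AS1 (0.52). ST6GALNAC5 averaged 1124 in PC-3, 119 in TEM4-18 and 95.6 in TEM2-5, so it too lay at a like level in both TEM lines. LRRC75A was nearest to CRYBA2 (0.65), KRTAP3-1 (0.73) and the noncoding RNA UCA1 (0.81), and FAM3B to KRTAP3-1 (0.58), CRYBA2 (0.67) and the chemokine gene CXCL1 (0.71). KDF1 was nearest to COBL, an actin nucleator gene (0.49), the stress-response factor ATF3 (0.94) and TTC9 (0.99). These likenesses rest on 6 arrays of 3 lines and describe the shape of the values.

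The members' relatives moved in both directions. Among 111 listed relatives, partners, pathway genes and genomic neighbours, 75 were tested. In TEM4-18, 25 of them fell and 11 rose against PC-3 (all genes: 16% lower and 13.3% higher). In TEM2-5, 21 fell and 10 rose (all genes: 10.1% and 8.98%). Among the falls are ALPG in both lines and ALPI in TEM4-18, on probe sets that can match several transcripts. The median log2 differences were -0.20 and -0.12. Between the TEM lines, 6 were lower in TEM4-18 and 0 were higher (all genes: 2.26% lower, 2.75% in either direction). Without TEM2-5 replicate 2, the number called in TEM2-5 was 20 in place of 31. The 6 called between the lines became 3 on leaving out either TEM4-18 array, 1 without TEM2-5 replicate 1, and 3 if replicate 2 of TEM2-5 was dropped.

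Among the alkaline phosphatases, lower signals were also read for the ALPP relatives ALPG and ALPI, each on a probe set that can match several transcripts. ALPG, the germ-cell alkaline phosphatase gene, read 1319 and 1198 in PC-3, 611 and 346 in TEM4-18, and 614 and 665 in TEM2-5 on 216377_x_at. It fell in TEM4-18 (-1.35 ± 0.24, adjusted p = 0.00206) and TEM2-5 (-0.92 ± 0.24, adjusted p = 0.0256), beside -5.24 and -2.98 for ALPP. ALPI, the intestinal enzyme gene, fell in TEM4-18 on 211618_s_at from 451 ± 39.2 to 78.9 ± 38.5 (SD, n = 2; log2 difference -1.97 ± 0.43, adjusted p = 0.00641) and did not pass in TEM2-5 (-1.34 ± 0.43, adjusted p = 0.0584).

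The names of both probe sets, with _x_at and _s_at, mark probes that can match several transcripts, and these near-identical genes lie side by side, so these values are uncertain and the share of ALPP transcripts in them was not tested. Their other probe sets carried little signal. ALPI on 207140_at read 14.1 to 15.9 on all 6 arrays. ALPG on 210431_at read 154 and 125 in PC-3, 162 and 19.0 in TEM4-18, and 184 and 63.0 in TEM2-5. ALPL, the tissue-nonspecific enzyme gene, averaged 150 in PC-3, 174 in TEM4-18 and 180 in TEM2-5 and was below the filter. Of the 6 tested genes of alkaline phosphatases and phosphate handling, 3 fell and 0 rose in TEM4-18, and 2 fell and 1 rose in TEM2-5. The shares over all tested genes were 16% lower and 13.3% higher in TEM4-18, and 10.1% and 8.98% in TEM2-5. These falls include ALPG in both lines and ALPI in TEM4-18, on the uncertain probe sets.

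**Figure D3:**
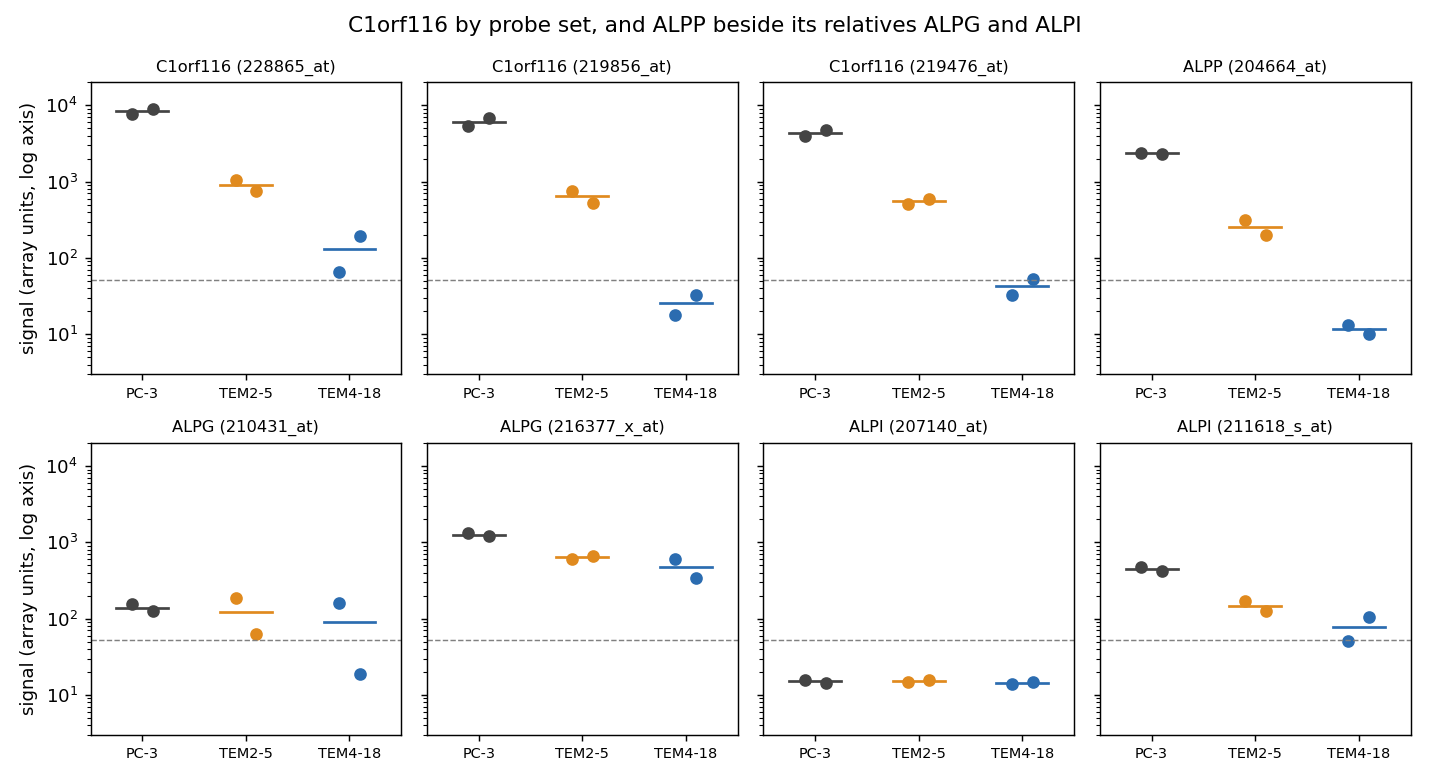
Signals by array on a log axis, in array units, for the 3 probe sets of C1orf116, that of ALPP, and both probe sets each of ALPG and ALPI; points are arrays, bars are means of 2 arrays, and the dashed line is 51.8. The C1orf116 probe sets show one order of lines, and ALPI on 207140_at is flat at 14.1 to 15.9.

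The other CBL ligases kept signals above the filter in both TEM lines. CBL averaged 6684 ± 244 in PC-3, 8059 ± 169 in TEM4-18 and 7300.2 ± 263 in TEM2-5 (SD, n = 2). On this probe set, 225231_at, it rose in TEM4-18 by a log2 difference of 0.27 (adjusted p = 0.0402) and did not pass in TEM2-5 (0.13, adjusted p = 0.367). None of the other tested CBL probe sets passed in either line. In TEM4-18 they gave 0.15 (206607_at), 0.08 (225234_at), -0.07 (229010_at) and -0.35 (243475_at), with adjusted p of 0.235 to 0.814. CBLB passed in neither line (-0.22 and 0.19, adjusted p = 0.292 and 0.408). Among all 14 tested CBL relatives, receptors and adaptors, 5 fell and 3 rose in TEM4-18, and 3 fell and 2 rose in TEM2-5. The shares over all tested genes were 16% lower and 13.3% higher in TEM4-18, and 10.1% and 8.98% in TEM2-5.

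Of the receptors and kinases in that list, ERBB3, a receptor for neuregulins, changed most. It read 2697 and 2188 in PC-3, 414 and 453 in TEM4-18, and 830 and 609 in TEM2-5 (log2 differences -2.36 ± 0.19 and -1.70 ± 0.19, adjusted p = 1.18e-05 and 0.000261). The kinase genes SRC and LYN moved in opposite directions. SRC averaged 2771 ± 35.3 in PC-3 and rose to 7124 ± 686 in TEM4-18 and 5531 ± 399 in TEM2-5, and LYN fell from 1812 ± 90.3 to 785 ± 29.4 and 988 ± 13.7 (SD, n = 2). All 4 of these differences passed, with adjusted p of 8.08e-06 and 0.00018 for SRC and 0.000234 and 0.00334 for LYN.

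FAM3C, a relative of FAM3B that encodes the interleukin-like EMT inducer, moved the other way on its brightest probe set, 201889_at. It read 10477 and 8952 in PC-3, 20233 and 18082 in TEM4-18, and 16503 and 15872 in TEM2-5. The rise was 0.98 ± 0.09 in TEM4-18 (adjusted p = 3.07e-05) and 0.74 ± 0.09 in TEM2-5 (adjusted p = 0.000475). Its other tested probe set, 236316_at, passed in neither line (0.53 and 0.18, adjusted p = 0.18 and 0.708). FAM3A and FAM3D passed in neither line, with log2 differences between -0.15 and 0.13. LRRC75B, the one other LRRC75 gene measured, passed in neither line (-0.46 and -0.18, adjusted p = 0.433 and 0.808).

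DKK1, the nearest measured gene on one side of LNCAROD, fell in both lines. It read 81984 and 79827 in PC-3, 51761 and 57471 in TEM4-18, and 62243 and 59176 in TEM2-5. The log2 difference was -0.57 ± 0.06 in TEM4-18 (adjusted p = 9.39e-05) and -0.41 ± 0.06 in TEM2-5 (adjusted p = 0.00152), beside -5.25 and -2.99 for LNCAROD. DKK1 lay between the 99.5th and 99.9th percentile on every array, at the top of the range, so these sizes may not compare with those of LNCAROD. DKK2, DKK3 and DKK4 were below the filter, with means between 104 and 179.

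Of 18 epidermal differentiation genes listed with KDF1, 8 were tested, and 5 fell and 0 rose in each TEM line. The shares over all tested genes were 16% lower and 13.3% higher in TEM4-18, and 10.1% and 8.98% in TEM2-5. DSP, which encodes the desmosomal plaque protein desmoplakin, fell from 17393 ± 283 to 3022 ± 106 in TEM4-18, and to 7476 ± 397 in TEM2-5 (SD, n = 2; log2 differences -2.51 ± 0.09 and -1.21 ± 0.09, adjusted p = 2.84e-08 and 1.5e-05). OVOL1, an epithelial transcription factor gene, fell from 2413 ± 152 to 465 ± 72.1 and 922 ± 2.97 (adjusted p = 4.95e-06 and 0.000415). The outer epidermis genes IVL, LORICRIN, FLG and TGM1 and the basal keratin KRT14 were all below the filter.

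Of 22 androgen-responsive genes listed with C1orf116, 15 were tested, with 6 lower and 2 higher in TEM4-18 and 4 lower and 1 higher in TEM2-5. The shares over all tested genes were 16% lower and 13.3% higher in TEM4-18, and 10.1% and 8.98% in TEM2-5. The prostaglandin-degrading enzyme gene HPGD fell in TEM4-18 (-2.44 ± 0.26, adjusted p = 7.36e-05) and did not pass in TEM2-5 (-0.79 ± 0.26, adjusted p = 0.068). PMEPA1, an inhibitor of TGF-beta signalling, fell in both lines (-2.33 and -1.59, adjusted p = 8.25e-05 and 0.00205), as did NDRG1 (-1.63 and -1.10, adjusted p = 1.83e-05 and 0.000584). TMPRSS2, an androgen-regulated membrane protease gene, rose in both (1.71 ± 0.21 and 1.51 ± 0.21, adjusted p = 0.000207 and 0.000931), so the list did not move one way. KLK3, the gene of prostate-specific antigen, passed in neither line (0.23 and 0.07, adjusted p = 0.497 and 0.866). Its probe set, 231629_x_at, is also of the kind that can match several transcripts, so its signal is uncertain.

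The genomic neighbours of the members, taken as the 3 nearest genes with a probe set on each side in RefSeq order, moved in both directions. Of 42 neighbours 29 were tested, and 8 fell and 6 rose in each TEM line, with median log2 differences of -0.09 in TEM4-18 and -0.13 in TEM2-5. The shares over all tested genes were 16% lower and 13.3% higher in TEM4-18, and 10.1% and 8.98% in TEM2-5. Among the neighbours that fell were ALPG in both lines and ALPI in TEM4-18, on the uncertain probe sets described above. No tested neighbour had a log2 difference from PC-3 as large as that of its member. Around CBLC, 0 of 6 tested neighbours were called in TEM4-18 and 1 in TEM2-5, the mitochondrial import gene TOMM40, which fell by a log2 difference of -0.50 (adjusted p = 0.0252; -0.36, adjusted p = 0.0664 in TEM4-18). Of the genes adjoining CBLC, CEACAM19 passed in neither line (-0.38 and -0.75, adjusted p = 0.663 and 0.395), and BCAM, which encodes a laminin receptor, stood at 783 ± 15.5 in PC-3, 849 ± 28.1 in TEM4-18 and 837 ± 51.8 in TEM2-5 (SD, n = 2).

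Near C1orf116, FCMR, which encodes an IgM receptor, fell from 2849 ± 1006 to 453 ± 239 in TEM4-18 and 1336 ± 45.9 in TEM2-5 (SD, n = 2; log2 differences -2.56 ± 0.31 and -1.02 ± 0.31, adjusted p = 0.000151 and 0.0458). The glycolytic regulator gene PFKFB2 fell too (-1.11 and -0.77, adjusted p = 8.12e-05 and 0.00184), while YOD1, next to C1orf116 on the same side, did not pass (0.02 and 0.10, adjusted p = 0.879 and 0.515). On the side of ALPP away from ALPG, DIS3L2 rose in both lines (0.66 and 0.66, adjusted p = 0.0108 and 0.0168), and next to KDF1 both NUDC (0.46 and 0.35, adjusted p = 0.00058 and 0.00584) and TRNP1 (0.48 and 0.38, adjusted p = 0.00178 and 0.0111) rose. Near FAM3B, the interferon-induced MX1 fell (-2.44 and -1.70, adjusted p = 2.46e-05 and 0.000625), MX2 beside it did not pass (-0.09 and 0.06, adjusted p = 0.84 and 0.909), and TMPRSS2 rose. On the other side of FAM3B, BACE2 passed in neither line (-0.23 and -0.13, adjusted p = 0.115 and 0.412), nor did ZNF287 beside LRRC75A (0.25 and 0.15, adjusted p = 0.728 and 0.857). The adjoining genes FCAMR (C1orf116), MBL2 (LNCAROD) and TRPV2 (LRRC75A) were below the filter.

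**Figure D4:**
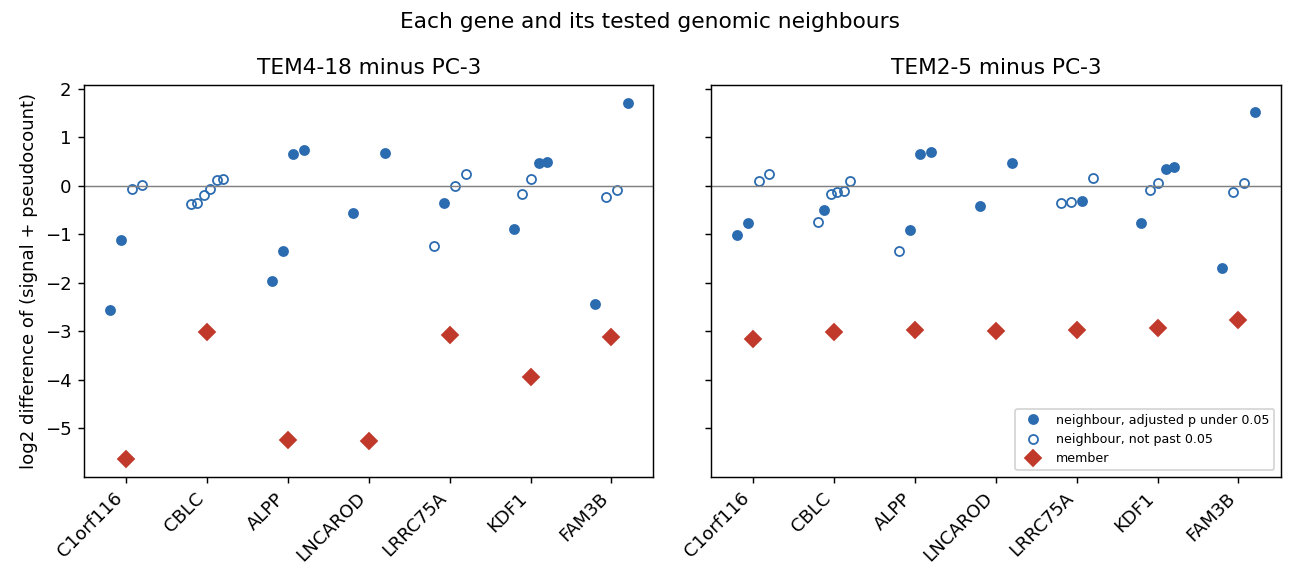
Log2 difference of (signal + 51.8) in TEM4-18 and TEM2-5 against PC-3 for each member (diamonds) and its tested neighbours (circles, filled where the adjusted p is under 0.05). Each member lies below its own neighbours in both panels, and of 6 neighbours of CBLC 0 are filled for TEM4-18 and 1 for TEM2-5.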

How the data were processed

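Total RNA of PC-3, TEM4-18 and TEM2-5 was measured on 6 arrays, 2 per line, numbered by the titles. The deposited values are linear intensities made by the authors with MAS5, per the submitters' processing notes, and their 2% trimmed means of 1500.17 to 1500.18 show one scaling, so no further normalization was applied. Detection calls were not used here. Platform annotation gave 41097 of 54675 probe sets a single symbol, and 0 symbols changed on matching gene IDs to RefSeq. Probe sets with a mean above 174, the 40th percentile of non-control means, were tested: 32768 probe sets and 13621 genes. The fit of log2(value + 51.8) used limma 3.58.1 under R 4.3.3 (lmFit, eBayes with trend), 3 group means and 3 residual degrees of freedom. P-values were two-sided and adjusted by Benjamini-Hochberg across the 32768 probe sets, per contrast. The script was tested on simulated data. The number of arrays limits the precision, and 2 per group allow no permutation test.

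The members, related-gene lists and tests were chosen with earlier results of these data known. Related genes were named if they were paralogs or direct neighbours of a member, or passed with a log2 difference of at least 1 in either line, beside 3 nearest profiles per member. KLK3, DKK2, DKK3, DKK4, IVL, LORICRIN, FLG, TGM1, KRT14 and TOMM40 were named after their values were seen. Alternatives changed the pseudocount, filter, scaling, trend, probe set summary, replicate block and arrays.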

Additional observations from a re-analysis of the deposited data

Results flagged for a closer look

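TEM4-18 and TEM2-5 differed from each other in their change against PC-3 for 3 of the 7 genes, by the limma test of the difference between the TEM lines. The log2 difference of TEM4-18 minus TEM2-5 was -2.47 for C1orf116, -2.26 for ALPP and -2.26 for LNCAROD. The choice of the members partly fixed this direction. The size for ALPP depends on the pseudocount, since its TEM4-18 mean of 11.8 lay below 51.8: it was -4.31 with a pseudocount of 1 and -1.07 with 4 times the pseudocount. Groups of 2 arrays were too small for a check of single arrays that stand apart.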

How the results depend on the processing

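The median log2 difference of the members tested kept its sign under all 14 alternatives, but its size depended on the pseudocount. The choice of the members largely fixed the sign against PC-3, and partly that between the TEM lines, so nothing is read from it. TEM4-18 minus PC-3 (-3.95) became -5.56 with a pseudocount of 1 and -2.46 with 4 times the pseudocount, TEM2-5 minus PC-3 (-2.98) became -3.76 and -2.01, and TEM4-18 minus TEM2-5 (-1.01) became -2.19 and -0.45. A filter at the 60th percentile left 3 of the genes (-5.25 for TEM4-18 minus PC-3 and -2.26 between the TEM lines), and the mean of all probe sets left 6 (-4.59 and -1.63). Leaving out single arrays gave -4.19 to -3.71 for TEM4-18 minus PC-3, -3.03 to -2.93 for TEM2-5 minus PC-3 and -1.84 to -0.34 between the TEM lines. Of the 7, 2 to 3 were called between the TEM lines without single arrays, and 2 without the mean-variance trend.

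Related genes called in TEM2-5 numbered 31, against 16 without the mean-variance trend, 20 with the mean of all probe sets and 20 to 33 without single arrays. In TEM4-18 they numbered 36, against 30 without the mean-variance trend and 28 with the mean of all probe sets. Between the TEM lines they numbered 6, against 1 with no filter on low values, 1 without the mean-variance trend and 1 to 5 without single arrays. Over all genes, the 375 called between the TEM lines became 201 with no filter, 248 with the mean of all probe sets, 78 without the trend, 214 without TEM4-18 replicate 2, and 150 and 174 on leaving out replicates 1 and 2 of TEM2-5. The 2593 called in TEM2-5 became 1034 without the trend, 1630 without PC-3 replicate 2, and 1497 and 1446 on leaving out replicates 1 and 2 of TEM2-5, while the 3988 in TEM4-18 became 2345 without the trend. The cause was not tested.

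The titles share replicate numbers between the lines, but the source names give both TEM2-5 arrays the number 1, so the block and the TEM2-5 replicate numbers follow the titles. Deviations of same-numbered arrays correlated at 0.0625 to 0.0978 between lines. With the replicate number as a block, 3 members were still called between the TEM lines, and related genes called were 38 in TEM4-18, 34 in TEM2-5 and 9 between the TEM lines, with 548 genes called in all there. Signals below 51.8 in both TEM lines limit what can be said of CBLC, LRRC75A and FAM3B.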
